A study of Homo sapiens with 4 samples.

Results

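Transcripts of the mitochondrial ribosomal proteins were compared between parental PC-3 cells and their bone-metastatic derivative, PC-3-BM. The members were all genes with a symbol of the form MRPL or MRPS followed by a number, read from array probe sets that carry a single gene symbol, and each gene was represented by the probe set that was brightest on average over the arrays. This gave 73 genes of the 18417 measured, 48 with large-subunit symbols (MRPL) and 25 with small-subunit symbols (MRPS). PC-3 is an established human prostate cancer line, labelled here as poor in metastatic potential. PC-3-BM is a single line grown from PC-3 cells that had formed bone metastases in male athymic nude mice after intracardiac injection, through repeated rounds of selection. Both lines carry firefly luciferase joined to green fluorescent protein, and the labels name no agent given to either. The methods, however, describe geneticin selection in culture and sorting by fluorescence for the cells taken from bone. The labels speak of growth in mice whereas the methods describe culture, so how the cells were kept before RNA was extracted is not settled. Each line was measured on 2 arrays, and nothing says that they came from separate cultures. Every p-value given here therefore weighs the difference between the lines only against the spread between arrays, which may be technical.

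Mitochondria keep their own ribosome, which translates the small set of messages of mitochondrial DNA, all of them for subunits of the respiratory chain and ATP synthase. Its RNA is made inside the organelle, but all of its proteins are encoded in the nucleus, made in the cytosol and imported. Many descend from bacterial ribosomal proteins, and others were added during the evolution of mitochondria and have no bacterial counterpart. The large subunit (39S) joins amino acids and releases the new chain towards the inner membrane, and the small subunit (28S) reads the message.

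Of the 73 members, 43 fell in PC-3-BM, 0 rose and 30 did not pass the test (limma, adjusted p below 0.05 over all 33297 probe sets). At an unadjusted p below 0.05, 50 members were lower and 0 higher. The 43 that fell are 58.9% of the members, where 14.8% of all measured genes fell and 14.8% rose, and over all probe sets 11.6% fell and 11.6% rose. The difference, PC-3-BM minus PC-3 on the log2 scale, had a median of −0.35 over the members, with quartiles of −0.57 and −0.17, against −0.042 over all genes. A median member thus stood at 78.3% of its PC-3 level. The shift was broad and of modest size, for 67 of the 73 differences lay below 0, the whole range ran from −1.21 to 0.17, MRPS25 alone exceeded 1 in size, and 0 members passed the study's own thresholds. Among the 5749 genes at least as bright as the lower quartile of the members, 1266 fell, 1395 rose and the median was 0.0046. The study's own pathway analysis was made on these same arrays, and these genes were picked with earlier results known, so the direction is no independent evidence. In bulk RNA, fewer cells of a type and less RNA per cell cannot be told apart.

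The arrays themselves were separated in most members. In 60 members both PC-3-BM arrays lay below both PC-3 arrays, which is 82.2% of them, where 39.8% of all genes did so. In 3 members, MRPL43, MRPL44 and MRPS9, both PC-3-BM arrays lay above, where 5682 of all 18417 genes did so. None of these 3 passed the test. The median deviation of the members from their own 4-array means was 0.15 and 0.23 on PC-3 arrays 1 and 2, and −0.18 and −0.18 on the PC-3-BM arrays, while the medians of all genes stayed between −0.020 and 0.019. The 2 PC-3 arrays were not alike, since 60 of the 73 members were brighter on array 2, while on the PC-3-BM arrays 34 were. The median gap between the PC-3 arrays was 0.076 over the 73 members and 0.016 over all genes. The count of calls moved with single arrays. Without PC-3 array 1, PC-3 array 2, PC-3-BM array 1 or PC-3-BM array 2 it was 13, 9, 19 and 20, where 4.47%, 3.66%, 6.19% and 6.66% of all genes still fell, and the differences of all 43 stayed below 0 in each of these fits. Called in every one of the 4 were MRPS25, MRPL1, MRPL3, MRPL46, MRPS12, MRPS26, MRPL39, MRPS2 and MRPS16, while 19 of the 43 were called in 0 of the 4.

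**Figure D1:**
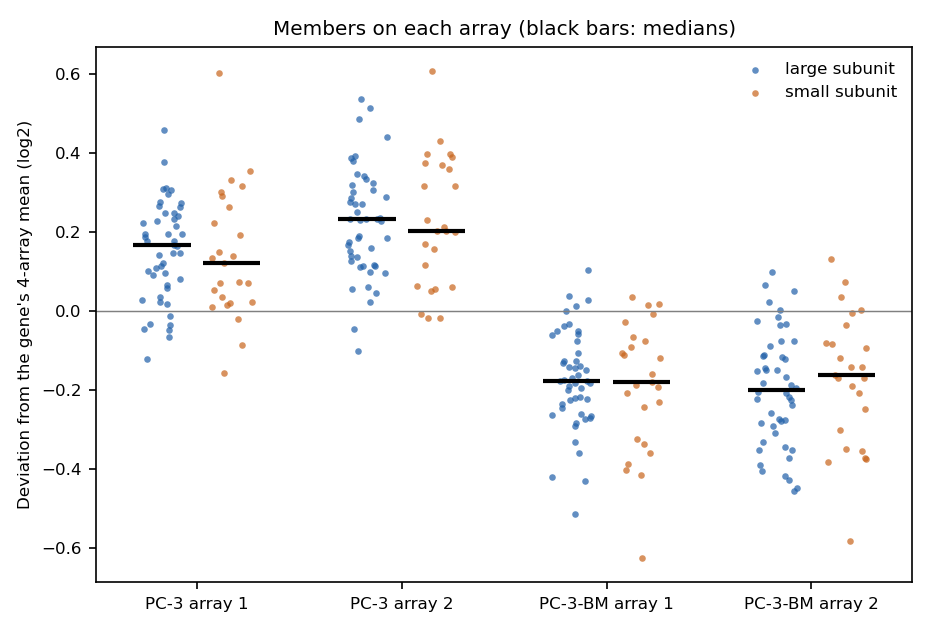
Deviation of each member from its own mean over the 4 arrays (log2, vertical axis), by array, with large-subunit symbols in blue and small-subunit symbols in orange and black bars at the medians. The medians of both groups lie above 0 on the PC-3 arrays, higher on array 2 than on array 1, and below 0 on both PC-3-BM arrays.

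The largest difference was that of MRPS25 (mS25), a mitochondria-specific protein of the small subunit. It read 9.29 and 9.29 on the PC-3 arrays and 8.06 and 8.10 on the PC-3-BM arrays, with no overlap, a difference of −1.21 ± 0.068 (SE, adjusted p = 0.0018, limma). MRPL1, whose bacterial relative forms the mobile stalk by which spent tRNA leaves the large subunit, read 6.93 and 6.96 in PC-3 against 5.96 and 6.05 in PC-3-BM, a difference of −0.94 ± 0.072 (adjusted p = 0.0030). For both, the arrays of a line lay far closer to each other than to those of the other line. MRPL3 is the homologue of a core protein that reaches towards the peptidyl transferase centre. It read 10.02 and 10.26 in PC-3, and 9.30 and 9.30 in PC-3-BM (−0.84 ± 0.099, adjusted p = 0.0069).

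MRPL46 belongs to the mitochondria-specific part of the central protuberance, the crest of the large subunit. Its values of 9.33 and 9.53 in PC-3 stood above 8.58 and 8.62 in PC-3-BM (−0.82 ± 0.093, adjusted p = 0.0064). MRPS12, the homologue of the bacterial protein that lines the decoding centre, read 8.79 and 8.87 in PC-3 against 8.04 and 8.06 in PC-3-BM (−0.78 ± 0.071, adjusted p = 0.0040). In each of these 2 genes the PC-3-BM arrays were closer to each other than the PC-3 arrays were. The next 5 in size lay between −0.72 and −0.69. MRPL16, a conserved large-subunit protein, read 9.26 and 9.22 against 8.62 and 8.43. MRPS26, a mitochondria-specific protein, read 8.92 and 9.002 against 8.25 and 8.26. MRPL39, which resembles threonyl-tRNA synthetase, read 10.40 and 10.58 against 9.78 and 9.79. All 3 fell with separated arrays, at adjusted p-values of 0.0082, 0.0049 and 0.0076. MRPS2 read 10.50 and 10.54 in PC-3 and 9.85 and 9.79 in PC-3-BM. MRPS16 read 10.85 and 10.94 in PC-3 and 10.21 and 10.20 in PC-3-BM. Both have bacterial homologues, and both fell (adjusted p = 0.0048 and 0.0053).

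At the other end, some members held nearly the same level in both lines. MRPL23, a protein of the tunnel exit, read 8.62 and 8.72 in PC-3 against 8.70 and 8.63 in PC-3-BM, a difference of −0.0071 ± 0.077. MRPL9 read 10.06 and 10.17 against 10.13 and 10.15 (0.022 ± 0.076), and MRPL18 read 10.05 and 10.22 against 10.07 and 10.07 (−0.069 ± 0.084). The arrays of the lines overlapped for all 3. The small-subunit members with the smallest differences were MRPS5 (0.0091 ± 0.067), MRPS10 (−0.017 ± 0.071) and MRPS14 (0.026 ± 0.082). MRPS5 read 9.50 and 9.47 in PC-3, and 9.51 and 9.48 in PC-3-BM. MRPS10 read 9.84 and 9.78, then 9.82 and 9.77. MRPS14 read 8.13 and 8.27, then 8.21 and 8.25. Again the lines overlapped. The highest differences, 0.17 for MRPL43, 0.17 for MRPS9 and 0.13 for MRPL44, did not pass the test (adjusted p = 0.17, 0.25 and 0.26), and no member was called higher under any setting tried.

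**Figure D2:**
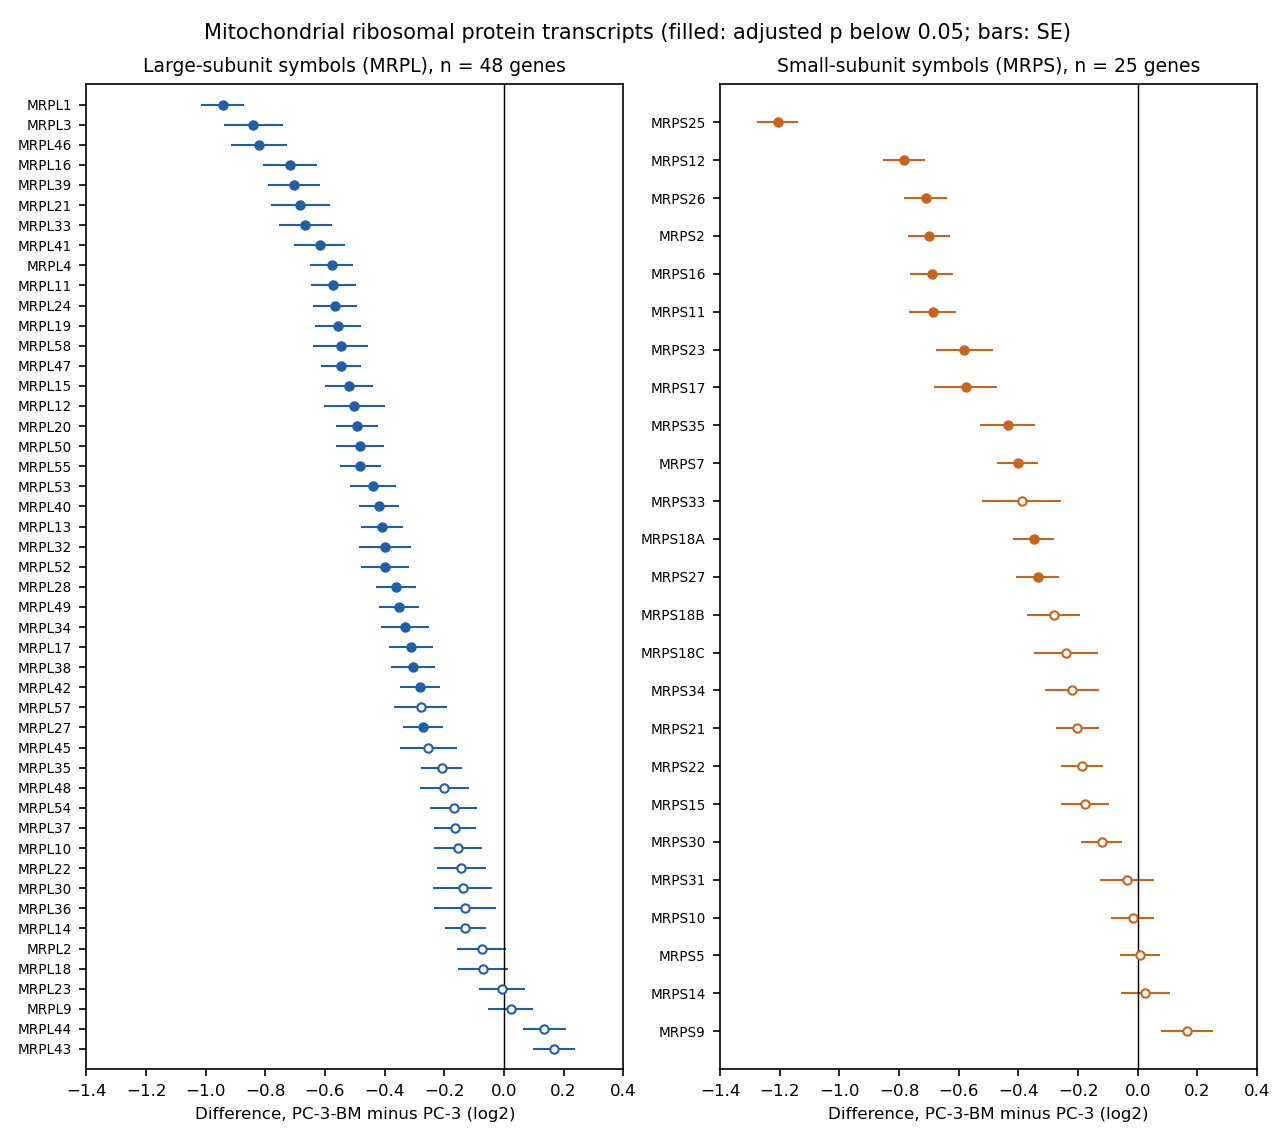
Difference of each of the 73 members, PC-3-BM minus PC-3 (log2, horizontal axis), with bars of 1 standard error, for large-subunit symbols on the left and small-subunit symbols on the right. Filled points passed the test, all of them to the left of 0, from −1.21 for MRPS25 to −0.27 for MRPL27, and open points did not.

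Both subunits were lower in PC-3-BM, and the gap between them was small. Of the large-subunit symbols 31 of 48 fell (64.6%), with a median difference of −0.38, and of the small-subunit symbols 12 of 25 fell (48.0%), with a median of −0.34. Arrays were separated, PC-3-BM lower, in 40 of 48 (83.3%) and 20 of 25 (80.0%). Over all genes 39.8% were separated in this way, and 14.8% fell. The median of the large subunit minus that of the small was −0.045 and ran from −0.12, without PC-3 array 2, to −0.0020, without PC-3-BM array 2. On single arrays, the median deviation of the large subunit minus that of the small was 0.045 and 0.029 in PC-3, and 0.0037 and −0.038 in PC-3-BM, so that the lines lay little farther apart than the PC-3-BM arrays did. The order of the shares that fell did not hold either. Without any 1 of the 4 arrays, the larger share was that of the small-subunit symbols.

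Symbols do not always name the subunit that holds the protein. MRPS18A (mL66) and MRPS30 (mL65) are part of the large subunit in the known structure, despite their names. Moving both changed the counts to 32 of 50 and 11 of 23 and the difference of the medians to −0.022. MRPS18A is a paralogue of MRPS18B and MRPS18C, which are small-subunit proteins. It read 10.65 and 10.70 in PC-3 against 10.34 and 10.31 in PC-3-BM, and fell (−0.35 ± 0.069, adjusted p = 0.026), a call lost without any 1 of the 4 arrays, with differences of −0.37 to −0.32. MRPS18B read 9.84 and 10.02 against 9.68 and 9.62 (−0.28 ± 0.089, adjusted p = 0.089). MRPS18C read 6.49 and 6.58 against 6.17 and 6.42 (−0.24 ± 0.11, adjusted p = 0.18). Arrays of the lines were separated in all 3 paralogues, and whether their differences differ from each other was not tested. MRPS30 read 9.61 and 9.59 in PC-3 and 9.51 and 9.44 in PC-3-BM (−0.12 ± 0.070, adjusted p = 0.28).

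By origin, 14 of 26 members with relatives in all ribosomes fell (53.8%, median −0.41). So did 12 of 17 with relatives in bacteria alone (70.6%, median −0.36). Of 30 named as specific to mitochondria 17 fell (56.7%, median −0.34), where 14.8% of all genes fell. The 30 include MRPS18A and MRPS18B, although their paralogue MRPS18C is counted with the bacterial relatives. The universal members of the small subunit were the most mixed of these groups, with 5 of 10 falling and quartiles of −0.66 and 0.0025. MRPS12, MRPS2, MRPS11 (−0.69), MRPS17 (−0.58) and MRPS7 (−0.40) fell. MRPS9, MRPS10, MRPS14 and MRPS5 had differences from −0.017 to 0.17, and MRPS15 had −0.18. The bacterial homologues of MRPS7, MRPS9, MRPS10 and MRPS14 all lie in the head of the small subunit. Of these MRPS7 alone fell, and its call was lost without any 1 of the 4 arrays. No test was made between these groups, which were described after the values were seen.

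Some members are known to share a site in the large subunit, and those named here were picked after their values were seen, with no test between them. Around the exit of the tunnel, where the new protein emerges, MRPL24 (−0.57 ± 0.074) and MRPL47 (−0.55 ± 0.067) fell, while MRPL22 (−0.14 ± 0.082) and MRPL23 did not pass the test. At the stalk that binds translation factors, MRPL12 (−0.50 ± 0.10) and MRPL11 (−0.57 ± 0.076) fell, and MRPL10, which holds MRPL12 in place, had a difference of −0.15 ± 0.081. In the central protuberance MRPL46, MRPL40 (−0.42) and MRPL38 (−0.30) fell and MRPL48 had −0.20 ± 0.083. MRPL58, a peptidyl-tRNA hydrolase that frees stalled ribosomes, fell by 0.55, and MRPL45, which contacts the inner membrane, had −0.25 ± 0.097 (adjusted p = 0.13). Of those that fell at these sites, MRPL12, MRPL38 and MRPL40 were called in 0 of the 4 fits that left out an array.

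Some proteins of this ribosome were read by probe sets that name a second gene, and are not among the members. The probe set of MRPS24 and the read-through URGCP-MRPS24 fell (−0.47 ± 0.072, adjusted p = 0.013). That of MRPS28 and TPD52 fell as well (−0.36 ± 0.068, adjusted p = 0.023). That of MRPS6 and SLC5A3, a myo-inositol transporter, rose (0.65 ± 0.082, adjusted p = 0.0079), and that of MRPL51 and SPTLC1 had 0.11 ± 0.083. Which gene of each pair these values stand for cannot be told apart. Among members with more than 1 probe set, the 2 of MRPL20 held equal values, 10.75 and 10.80 in PC-3 and 10.31 and 10.26 in PC-3-BM, and so did the 3 of MRPS18B. MRPL36 had 2 that differed. The brighter read 10.76 and 10.68 in PC-3 against 10.47 and 10.71 in PC-3-BM, with overlap, and the other 10.70 and 10.66 against 10.54 and 10.54, without. Neither passed the test (−0.13 ± 0.10 and −0.14 ± 0.068). MRPS36 was not analysed here.

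The members lie on 21 chromosomes, and each was set beside the 5 nearest measured genes on either side that are not members. The median difference of these 10 neighbours was below 0 for 63 of the 73 members, but small, with a median of −0.089 over the members, and 66 members lay lower than the median of their own neighbours. For MRPS25 the neighbours had −0.13 and for MRPL1 −0.051. MRPS31, on chromosome 13, had the neighbours with the highest median. It read 7.08 and 7.15 in PC-3 and 6.99 and 7.17 in PC-3-BM (−0.035 ± 0.091), while 6 of its 10 neighbours rose and their median was 0.70. MRPL57, also on chromosome 13, had −0.28 ± 0.089 beside neighbours at 0.32, of which 4 rose and 0 fell.

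**Figure D3:**
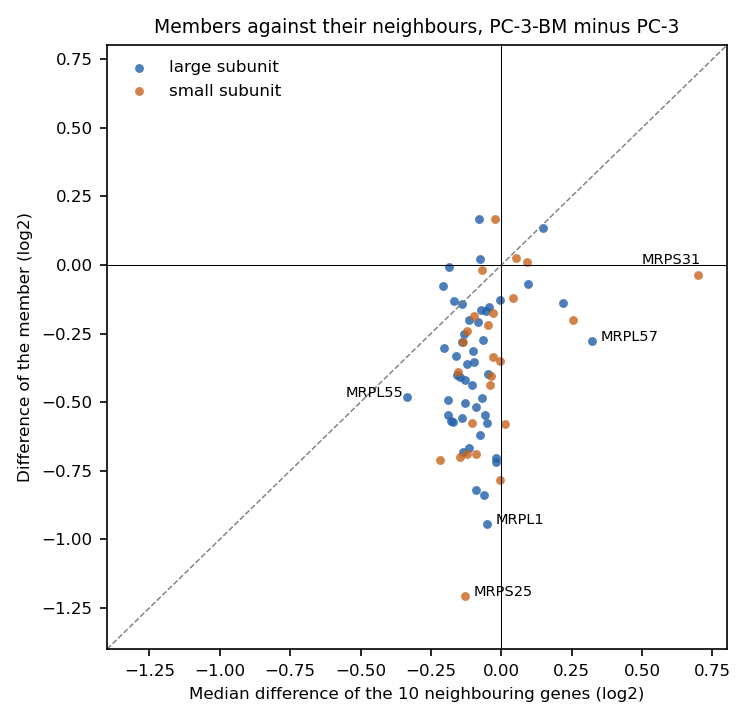
Difference of each member (vertical axis, log2) against the median difference of its 10 nearest measured genes (horizontal axis, log2), PC-3-BM minus PC-3, with large-subunit symbols in blue and small-subunit symbols in orange. Points below the dashed line of equality, 66 of 73, are members lower than their neighbours, and MRPS31 stands apart on the right with neighbours at 0.70.

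Promoters of nuclear genes for mitochondria often hold sites for GABP (NRF-2), an ETS-family factor, and for NRF1 and YY1. Promoter windows from RefSeq (assembly GRCh38.p14), 250 bases before to 50 after the first listed start, were found for 66 members. They were searched on both strands for 4 cores, NRF1 (CGCATGCG), ETS and GABP (CCGGAAG), YY1 (AAGATGGC) and the E-box bound by MYC (CACGTG). The ETS core was in 28 of 66 members (42.4%), against 14.6% of the measured genes and 10.3% of all windows. The YY1 core was in 18 (27.3%), against 4.07% and 2.89%. The NRF1 core was in 3 (4.55%, against 2.95% and 2.02%) and the E-box in 6 (9.09%, against 8.88% and 7.26%). Both the ETS and the YY1 core were in 7 members (10.6%), against 0.913% of the measured genes. Their letters can overlap by AAG, which happened in 0 of the 7. A match is a description of letters and not a site in use.

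The 150 bases up to the start are printed for 7 members, 5′ to 3′ on the strand of the gene, in lower case with the cores in capitals. MRPS25 and MRPL1, which had the largest differences, hold no core in the window, MRPL3 and MRPS26 hold the ETS core, MRPL47 holds those of ETS and YY1, and MRPL46 and MRPS11 start back to back from 1 stretch of chromosome 15. The YY1 core of the MRPL46 window lies outside the printed bases.
MRPS25, chr3:15065316-15065465, minus strand: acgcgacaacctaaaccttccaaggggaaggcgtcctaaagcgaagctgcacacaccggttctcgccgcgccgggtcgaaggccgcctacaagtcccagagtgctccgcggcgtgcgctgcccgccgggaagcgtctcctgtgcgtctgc
MRPL1, chr4:77862680-77862829, plus strand: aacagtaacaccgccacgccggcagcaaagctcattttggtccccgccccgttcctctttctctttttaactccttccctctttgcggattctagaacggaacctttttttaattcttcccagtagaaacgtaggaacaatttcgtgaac
MRPL3, chr3:131502972-131503121, minus strand: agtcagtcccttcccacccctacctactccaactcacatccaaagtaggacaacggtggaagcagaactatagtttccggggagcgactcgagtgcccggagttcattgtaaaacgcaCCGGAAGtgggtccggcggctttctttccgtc
MRPS26, chr20:3045902-3046051, plus strand: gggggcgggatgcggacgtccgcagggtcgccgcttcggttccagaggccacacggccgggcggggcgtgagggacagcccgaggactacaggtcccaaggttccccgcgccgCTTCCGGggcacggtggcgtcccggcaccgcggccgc
MRPL47, chr3:179604639-179604788, minus strand: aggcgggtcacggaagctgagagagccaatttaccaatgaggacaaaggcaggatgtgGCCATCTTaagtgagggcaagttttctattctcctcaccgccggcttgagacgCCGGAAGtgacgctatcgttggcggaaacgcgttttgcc
MRPL46, chr15:88467389-88467538, minus strand: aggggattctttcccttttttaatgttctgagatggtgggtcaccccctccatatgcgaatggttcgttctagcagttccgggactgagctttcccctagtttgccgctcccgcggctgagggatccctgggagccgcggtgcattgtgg
MRPS11, chr15:88467558-88467707, plus strand: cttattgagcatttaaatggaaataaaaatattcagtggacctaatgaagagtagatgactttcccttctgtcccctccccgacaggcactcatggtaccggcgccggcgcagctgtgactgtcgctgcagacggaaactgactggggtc

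The ETS core was in 17 of the 40 members that fell and 11 of the 26 that were not called, and the YY1 core in 12 and 6. The E-box was in 1 and 5, and the NRF1 core in 1 and 2. The median difference was −0.38 with the ETS core and −0.34 without, and −0.34 with the YY1 core and −0.38 without. It was −0.20 in the 6 members with the E-box and −0.40 without, and −0.24 in the 3 with the NRF1 core and −0.39 without. None of these differences was tested. Among the factors themselves, GABPA (−0.16 ± 0.071), GABPB1 (−0.13 ± 0.089) and NRF1 (0.091 ± 0.077) did not pass the test, whereas YY1 fell (−0.36 ± 0.076, adjusted p = 0.031). That call was lost without any 1 of the 4 arrays, with differences of YY1 from −0.41 to −0.31.

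A start within 1000 bases on the opposite strand, which makes a shared promoter possible, was found for 17 members. The pair MRPL46 and MRPS11, with 320 bases between the starts, is made of 2 members. MRPS11 read 10.89 and 11.00 in PC-3 against 10.22 and 10.30 in PC-3-BM (−0.69 ± 0.080, adjusted p = 0.0066), and both genes fell with separated arrays. Of the 15 partners that are not members, 3 fell (FAU, HELQ and PIERCE1), 1 rose and 11 were not called. That is 20.0% and 6.67%, where 14.8% of all genes fell and 14.8% rose. MRPS12 starts 181 bases from SARS2, the mitochondrial seryl-tRNA synthetase, which read 7.58 and 7.55 in PC-3 and 7.52 and 7.49 in PC-3-BM (−0.063 ± 0.068), while MRPS12 fell by 0.78. MRPL49 (−0.35 ± 0.067) starts 49 bases from FAU, a cytosolic ribosomal protein fused to a ubiquitin-like peptide, and both fell (FAU −0.54 ± 0.076). MRPL30 had −0.14 ± 0.099, and MITD1, 126 bases away, rose by 0.63 ± 0.077 (adjusted p = 0.0074). The calls of HELQ and MITD1 were lost without either PC-3 array, that of PIERCE1 also without PC-3-BM array 1 and that of FAU without any 1 of the 4, all with the sign kept.

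The other genes of the pathway were taken from lists of known genes. Of 4 further proteins of this ribosome that carry other symbols, CHCHD1 (mS37) fell, from 9.85 ± 0.022 to 8.88 ± 0.025 (SD, n = 2 arrays, adjusted p = 0.0025, limma), and DAP3 (−0.084), PTCD3 (−0.20) and GADD45GIP1 (−0.22) did not pass. Of 28 factors that assemble the ribosome or modify its RNA, 15 fell (53.6%) and 1 rose, with a median of −0.31. Over all 4 arrays 14.8% of all genes fell and 14.8% rose, and smaller shares fell in the fits without an array, as given above. Among those that fell were MTERF3 (−0.95 ± 0.070), which binds ribosomal RNA, MRM1 (−0.92 ± 0.10), a methyltransferase of the large ribosomal RNA, TRUB2 (−0.87 ± 0.094), a pseudouridine synthase, and ERAL1 (−0.69 ± 0.073), a chaperone of the small ribosomal RNA. TFB1M, which dimethylates the small ribosomal RNA, rose by 0.49 ± 0.085, and was not called without PC-3 array 1, PC-3 array 2 or PC-3-BM array 2 (0.46, 0.51 and 0.41). Without PC-3 array 1, PC-3 array 2, PC-3-BM array 1 or PC-3-BM array 2, 9, 4, 7 and 7 of the 28 fell.

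Transcription and RNA processing in the organelle had the lowest median of the lists, −0.49. Of 19 genes measured (of 21 listed) 14 fell (73.7%) and none rose, and none was higher at an unadjusted p below 0.05 either. The counts of this paragraph are read against the 14.8% of all genes that fell and the 14.8% that rose. TFAM, which packages mitochondrial DNA and starts its transcription, read 9.65 and 9.70 in PC-3 against 8.40 and 8.47 in PC-3-BM (−1.24 ± 0.072, adjusted p = 0.0018). HSD17B10 (−1.03 ± 0.088) and TRMT10C (−0.92 ± 0.067), subunits of the mitochondrial RNase P, and LRPPRC (−0.80 ± 0.067), which stabilises mitochondrial messages, fell as well. The count without each array, in the order given above, was 7, 6, 9 and 9. Of 16 translation factors measured (of 17 listed) 7 fell (43.8%) and 2 rose (median −0.17). They included MTIF2 (−0.83 ± 0.094), for initiation, GFM1 (−0.80 ± 0.073), for elongation, and GATB (−0.62 ± 0.075), of the glutamyl-tRNA amidotransferase, and MTRF1, a release factor, rose from 6.57 ± 0.084 to 7.38 ± 0.071 (SD, n = 2 arrays). The lower count was 3, 2, 3 and 3 without each array. Of 18 mitochondrial aminoacyl-tRNA synthetases measured (of 19 listed) 5 fell (27.8%) and 2 rose (median −0.11). KARS1 (−0.54 ± 0.079) and TARS2 (−0.41 ± 0.072) were among those that fell, and CARS2 (0.51 ± 0.084) and GARS1 (0.46 ± 0.070) were those that rose. KARS1 and GARS1 serve the cytosol too. Without each array 0, 0, 1 and 1 fell and 0 rose.

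Counts of the remaining lists over all 4 arrays are read against the 14.8% of all genes that fell and the 14.8% that rose. Those without an array are read against the lower shares of all genes that fell in the same fits. Of 58 cytosolic ribosomal proteins measured (of 79 listed) 23 fell (39.7%) and none rose (median −0.25, with 1 higher at an unadjusted p below 0.05), RPS24 (−1.04 ± 0.14), RPL29 (−0.82 ± 0.083) and RPL10A (−0.58 ± 0.069) among them. The count was 2, 2, 5 and 4 without each array and 13 with the arrays centred on their medians. Without each array it comes to 3.45%, 3.45%, 8.62% and 6.90%, near the 4.47%, 3.66%, 6.19% and 6.66% of all genes in the same fits. Of 69 nuclear-encoded subunits of oxidative phosphorylation measured (of 75 listed), 27 fell (39.1%) and 1 rose (median −0.21). Many of the 69 are partners of the proteins that this ribosome makes. ATP5MC1 (−1.11 ± 0.068) and CYC1 (−0.86 ± 0.079) were among those that fell. Leaving out any 1 of the 4 arrays lowered the count that fell. The 13 proteins encoded by mitochondrial DNA were not analysed here. Of 16 regulators 5 fell (31.25%) and 3 rose (median −0.14). In so short a list the 3 that rose lie near the share of all genes that rose. MYC (−0.54 ± 0.081) and ATF5 (−0.81 ± 0.16), a factor of the mitochondrial stress response, fell. DDIT3 (0.98 ± 0.10), a stress-induced factor, and PPARGC1A (0.55 ± 0.082), a coactivator of mitochondrial genes that stayed dim in both lines, rose. Without each array 0, 0, 2 and 0 of the regulators fell and 1, 1, 2 and 1 rose. The shares of these lists and of the members were not tested against each other.

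**Figure D4:**
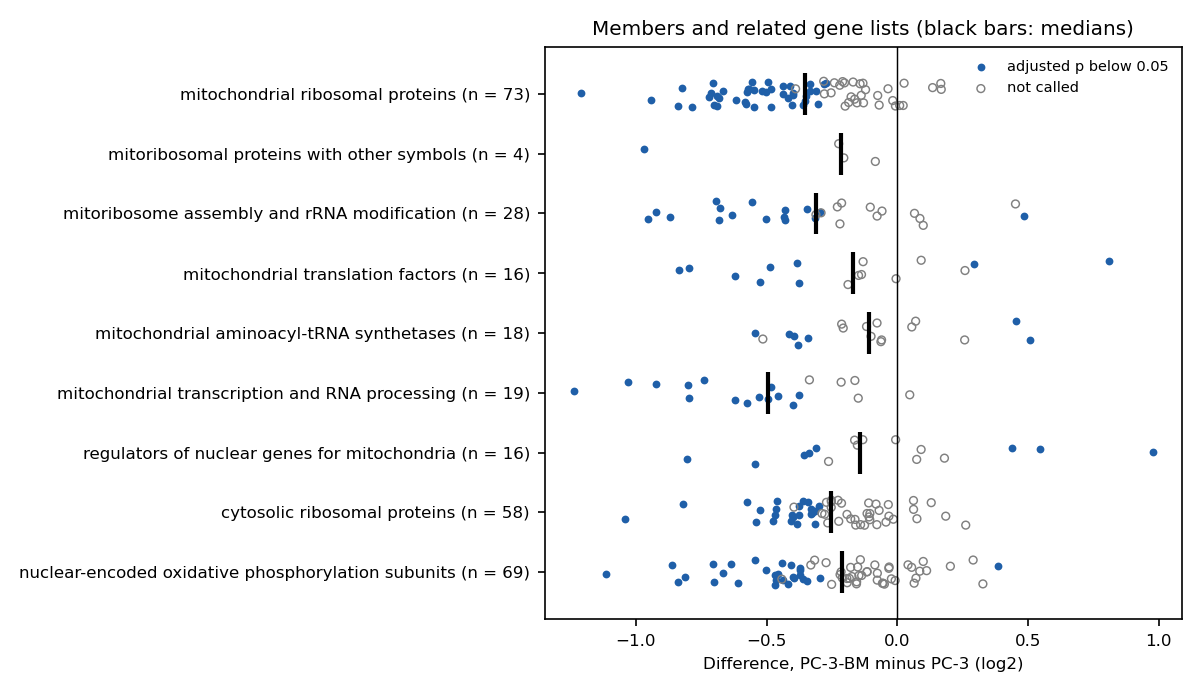
Difference of each measured gene, PC-3-BM minus PC-3 (log2, horizontal axis), for the members and 8 related lists (rows), with filled points for genes that passed the test, open points for those that did not and black bars at the medians. Medians run from −0.49 for transcription and RNA processing to −0.11 for the aminoacyl-tRNA synthetases, with −0.35 for the members.

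Markers of the labelled cell type moved between the lines too. The keratins KRT18 (means of PC-3 and PC-3-BM 10.77 and 10.37) and KRT19 (11.86 and 11.53) were bright in both lines, whereas CDH1 (5.02 and 5.02), DSP (4.74 and 4.62) and CLDN7 (5.95 and 5.65) were dim in both. KRT8 (−2.03 ± 0.10) and EPCAM (−1.30 ± 0.093) fell, as did 5 of the 8 epithelial markers in all, with summed log2 levels of 65.6 to 65.8 in PC-3 and 61.0 to 61.5 in PC-3-BM. Of 4 prostate luminal markers measured (of 8 listed) 1 fell, HOXB13 (−0.91 ± 0.072), which was bright. KLK3 (5.79 and 5.86, means of PC-3 and PC-3-BM) and KLK2 (5.98 and 5.84) were dim in both, though above the lower quartile of the array. Of 9 blood markers CD68 rose, while the differences of 7 lay below 0 (median −0.062). The sum was 52.0 to 52.2 in PC-3 against 52.2 to 52.5 in PC-3-BM, with PTPRC at 3.75 and 3.99. Of 9 stromal and bone markers 2 rose, COL1A1 by 0.68 ± 0.075 and LUM by 0.53 ± 0.086, and 3 lay below 0 (median 0.011). The sums were 53.1 to 53.1 and 54.0 to 54.3. Of 6 endothelial markers 1 rose, PECAM1 by 0.45 ± 0.074, while 4 lay below 0 (median −0.073). Their sums were 36.8 to 36.8 and 36.8 to 37.1. Over all genes 14.8% fell and 14.8% rose. In both lines 2 epithelial (CDH1 and DSP), 4 blood, 3 stromal and 2 endothelial markers were dimmer than the lower quartile of the array, while CD68 (10.66 and 11.38) and the endothelial marker KDR (10.87 and 10.71) were bright. The part of these differences in the levels of the members was not tested.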

How the data were processed

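Total RNA of PC-3 and PC-3-BM cells was labelled with biotin and hybridised to Affymetrix Human Gene 1.0 ST arrays, 2 per line. After image reading in Microarray Analysis Suite, the authors made the deposited log2 values by robust multichip averaging (RMA). It subtracts background, gives every array the same distribution and condenses probes into 1 value for each of the 33297 probe sets. Such values cannot show a change common to all transcripts of a line, and they carry no detection call. Of versions, limma 3.24 and R 3.2 are listed in the submitters' notes on processing. The genome build is not given in the sources used here.

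Gene symbols came from the annotation of the platform, and the 73 members were matched to RefSeq by gene identifier. PC-3-BM was compared with PC-3 in limma 3.58.1 under R 4.3.3 (lmFit, eBayes, Benjamini-Hochberg over all probe sets), the design of the study's methods. Genes are said to have risen or fallen at an adjusted p below 0.05. Each SE comes from the model. The smallest p that an exact two-sided permutation of 2 against 2 arrays can give is 0.333, so that the calls rest on moderated variances (2.88 prior and 2 residual degrees of freedom). Their number limits the precision. The procedure was tested on simulated data. The members, gene lists and motifs were chosen with earlier results of these data known, and no list was tested as a set. Values in every array are given for the 10 members with the largest differences that passed, the 3 of each subunit with the smallest, the MRPS18 paralogues, MRPS30 and members with several probe sets. Of other lists, up to 4 genes with the largest differences that passed, or the 2 brightest where none did, were named. Other genes and values were chosen after they were seen. Alternatives left out each array, used the replicate number as a block, centred the arrays, filtered dim or unnamed probe sets, averaged probe sets and changed the moderation.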

Additional observations from a re-analysis of the deposited data

How the results depend on the processing

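The median difference of the members kept its direction in every setting, from −0.31 without PC-3 array 2 to −0.37 without PC-3 array 1, and no member was called higher in any. The number of members that fell was 36 with arrays centred on their medians, 46 with a trended and robust prior, 47 among probe sets of 1 symbol and 43 with a filter on the mean above 5. Leaving out 1 array in turn, where the lone array was assumed to vary like the other line, gave 9 to 20 members, 4 to 13 of the large subunit and 5 to 7 of the small, and a difference between their medians of −0.12 to −0.0020. It was −0.022 with subunits from the known structure. With the replicate block 34 members fell, but same-numbered arrays did not deviate together (r = −0.017 across probe sets), so that the numbers give no pairing.

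For the other lists, leaving out 1 array gave 4 to 9 assembly factors lower and 0 to 1 higher, 2 to 3 translation factors lower and 1 to 1 higher, 0 to 1 synthetases lower and 0 to 0 higher, 6 to 9 transcription genes lower, 0 to 2 regulators lower and 1 to 2 higher, 2 to 5 cytosolic ribosomal proteins lower, and 4 to 11 oxidative phosphorylation subunits lower and 0 to 0 higher. With centring, 2 assembly factors were higher, 3 regulators lower and 13 cytosolic ribosomal proteins lower. With the trended and robust prior, 2 ribosomal proteins of other symbols were lower, and 2 assembly factors, 1 cytosolic ribosomal protein and 2 oxidative phosphorylation subunits higher. Among probe sets of 1 symbol these were 2, 2, 1 and 3. With the replicate block, 1 translation factor was higher, 2 regulators and 11 cytosolic ribosomal proteins lower and 0 oxidative phosphorylation subunits higher. The causes were not tested.

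The members that changed sign all lay near 0 and were not called. Leaving out 1 array in turn gave −0.15 to 0.012 for MRPL18, −0.13 to 0.054 for MRPS31, −0.044 to 0.0095 for MRPS10, −0.060 to 0.045 for MRPL23, −0.0040 to 0.022 for MRPS5, −0.034 to 0.078 for MRPL9 and −0.046 to 0.098 for MRPS14, and, of the markers, −0.074 to 0.21 for KLK3 and −0.34 to 0.066 for KLK2. With centring, MRPS10 had 0.017 and MRPL23 0.028.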
